A study of Mus musculus with 6 samples.

Results

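The Fc gamma receptor genes Fcgr1, Fcgr2b, Fcgr3 and Fcgr4, the gene of their shared signalling chain Fcer1g, the neonatal Fc receptor gene Fcgrt and the Fc receptor-like gene Fcrls were followed through mouse bone marrow libraries. These 7 genes, of 45706 in the count table, were taken by symbol, and all 7 were among the 15141 genes that passed the filter on low counts. They were chosen by their read counts in these libraries, with the difference between conditioned and control medium already known, so their levels are given as a description with no test. Marrow cultured in control medium gave 2 libraries. Marrow in medium conditioned by clear cell renal cell carcinoma (ccRCC) cells gave 4, with 1 library for each of the mouse tumour lines VpR83, VpR99, VpR126 and VpR2020. The series concerns a ccRCC model that resists checkpoint therapy. Its design text sets the cultures against freshly isolated marrow, whereas the sample labels say control medium, and an effect of culture itself cannot be told apart from that of the medium. Neither genotype, strain nor age is given in the labels, nor whether each library had its own animal or culture.

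Fc gamma receptors bind the constant part of IgG antibodies and couple antibody-coated particles to phagocytosis, cytokine release and cell killing. Fcgr1, Fcgr3 and Fcgr4 encode ligand-binding chains of activating receptors. They signal through the chain encoded by Fcer1g, which carries an immunoreceptor tyrosine-based activation motif (ITAM) that recruits the kinase Syk. Fcgr2b encodes the inhibitory receptor, whose cytoplasmic inhibition motif recruits the lipid phosphatase encoded by Inpp5d. Fcgrt pairs with β2-microglobulin inside cells, where it rescues IgG from lysosomal breakdown. Fcrls encodes a scavenger-type protein of the Fc receptor-like family that is known from mouse microglia.

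Of these genes, 4 lie on chromosome 1 (GRCm38, GENCODE M21). Fcgr2b spans 170958617 to 170976547 on the minus strand, Fcgr4 171018920 to 171029761 on the plus strand, and Fcgr3 171051174 to 171064935 on the minus strand. These 3 genes occupy 106 kb, and Fcer1g (171229572 to 171234365, minus strand) starts 165 kb further on. Fcgr1 (96282909 to 96293969) and Fcrls (87250758 to 87263738) lie on the minus strand of chromosome 3, and Fcgrt (45092990 to 45103851) on that of chromosome 7. Fcgr2b and Fcgr3 resemble each other closely. Of the 50-base windows of Fcgr3 transcripts, 9.58% also occur in transcripts of Fcgr2b, so some reads of this pair cannot be assigned to one gene with certainty. No 50-base window of Fcgr1, Fcgr4, Fcer1g, Fcgrt or Fcrls occurs in a transcript of another gene.

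The start regions of 4 of the 7 genes hold the letters GAGGAA, a core of sites bound by ETS factors such as the myeloid regulator PU.1. The RefSeq promoter table (GRCm38.p6, 250 bases before to 50 after each start) had all 7 genes. GAGGAA was searched on both strands and appears as TTCCTC where it lies on the strand opposite the gene. It was found in the windows of Fcgr1, Fcgr3, Fcgr4 and Fcrls, and in 28.3% of all 32851 promoter windows. The 26 bases around each match are shown because those of Fcgr1, Fcgr3 and Fcgr4 share the orientation and a pyrimidine-rich flank, while that of Fcrls faces the other way. The capitals mark the match, and each is read 5′ to 3′ along its gene.
Fcgr1: ggcaacttccTTCCTCttttctaatc
Fcgr3: gtccatttccTTCCTCtttttgtagt
Fcgr4: ggctatttacTTCCTCtcttctagtc
Fcrls: agtctgtaaaGAGGAAggacgtttgc

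In this order the stretches lie at chr3:96294009-96294034, chr1:171059394-171059419, chr1:171018894-171018919 and chr3:87263653-87263678. The match began 55 bases before the start of Fcgr1, 6 before that of Fcgr3, 22 before that of Fcgr4 and 144 before that of Fcrls. The RefSeq starts used for Fcgr3 and Fcrls lie inside the GENCODE spans of these genes. The Fcgr1 window also held TTCNNNGAA, the core letters of a STAT site, at 109 to 101 bases before the start. These letters are in 8.30% of all windows and in no other window of the 7 genes. The AP-1 letters TGANTCA, present in 7.81% of all windows, were in none of the 7. The Fcgr1 region (chr3:96293970-96294099, minus strand) is shown from 130 to 1 bases before the start, the part of the window with both matches, since no other of the 7 genes holds both, with the STAT letters and then the ETS letters in capitals. That of Fcer1g (chr1:171234366-171234495, minus strand) is shown from 146 to 17 bases before its start. It is the partner gene, and its window holds none of GAGGAA, TTCNNNGAA and TGANTCA. Other forms of ETS site were not searched.
Fcgr1: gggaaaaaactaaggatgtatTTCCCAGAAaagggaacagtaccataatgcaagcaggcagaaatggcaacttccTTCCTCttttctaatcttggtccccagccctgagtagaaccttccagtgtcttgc
Fcer1g: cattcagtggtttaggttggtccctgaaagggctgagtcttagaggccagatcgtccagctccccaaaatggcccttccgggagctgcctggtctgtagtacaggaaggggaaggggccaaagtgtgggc

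The motifs were chosen after the sequences had been seen. A match describes letters and is no evidence of a bound site.

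The libraries differed in depth and in the levels of genes that mark cell types. VpR99 was by far the deepest, with a total of 129120559 counts against 18629708 to 28055913 in the other 5. Levels are given in CPM, counts scaled to library size, and a count of 0 allows up to 3 counts, or 0.0232 to 0.161 CPM. Neutrophil markers summed to 81297 and 88985 CPM in the controls and to 2859 to 15050 CPM in conditioned medium, and 9 of 10 were called lower. Macrophage markers summed to 474 and 494 CPM in the controls and to 6637 to 15888 CPM in conditioned medium, and 10 of 10 were called higher. B cell, NK cell, and mast cell and basophil markers were called lower for 6 of 8, 7 of 7 and 7 of 7, with the NK granzyme gene Gzma at 0 counts in all 4 conditioned libraries. Of 8 monocyte markers, 0 were called higher and 3 lower, and of 8 dendritic cell markers 1 and 4. Over all tested genes, 22.5% were called higher and 19.7% lower. In bulk libraries, fewer cells of a type and less RNA per cell cannot be told apart, and the part of these cell types in the levels below was not tested.

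All 7 genes were higher in conditioned medium. With libraries scaled by the trimmed mean of M values (TMM), each conditioned library lay above both controls for all 7, a pattern shown by 32.0% of the 15141 tested genes, while 33.3% of them lay below both controls in every conditioned library. With library totals only, it held for 6, the exception being Fcgrt. Nothing is read from this count, since the genes were chosen with it known. The fitted differences ran from 1.95-fold for Fcer1g to 33.9-fold for Fcgr1 among the 6 genes with ample control counts, and were far larger for Fcrls, which was near its floor in the controls.

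**Figure D1:**
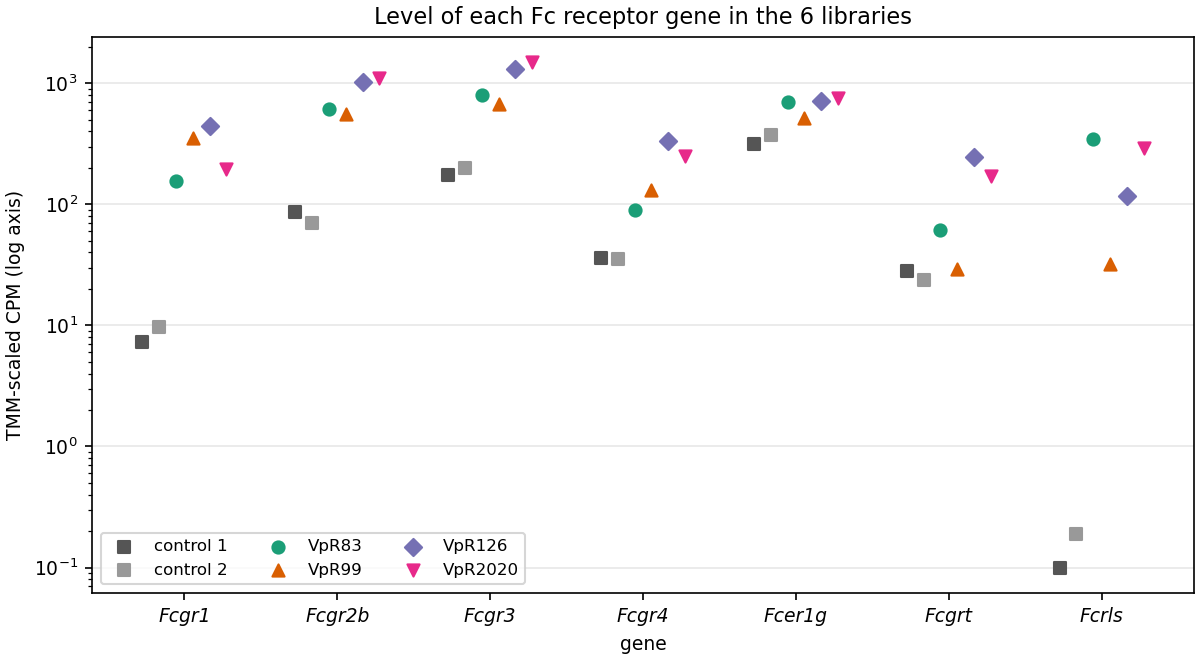
TMM-scaled CPM (log axis) of each gene in the 6 libraries, with squares for the 2 controls and other symbols for the 4 conditioned media. Fcgr1 sits at 7.3 and 9.73 CPM in the controls and at 155 to 447 CPM in conditioned medium, while Fcgrt under VpR99 (29.3 CPM) sits beside its controls.

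Fcgr1, the high-affinity receptor of monocytes and macrophages, differed most among the ligand-binding chains. The controls had 7.3 and 9.73 CPM, while marrow in conditioned medium had 155 CPM with VpR83, 354 with VpR99, 447 with VpR126 and 197 with VpR2020. The lowest conditioned library was far above both controls, and VpR126 and VpR99 stood above VpR2020 and VpR83. The means were 8.51 ± 1.72 (SD, n = 2) and 288 ± 136 CPM (SD, n = 4), a log2 fold change of 5.08 ± 0.59 (SE).

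Fcgr3, the low-affinity activating receptor of NK cells, macrophages and neutrophils, had the highest level of the 4 Fc gamma receptor genes per kilobase in every library. It had 173 and 201 CPM in the controls and 806 (VpR83), 668 (VpR99), 1312 (VpR126) and 1497 CPM (VpR2020) in conditioned medium. The groups did not overlap, and VpR126 and VpR2020 were the higher pair. The means were 187 ± 19.6 and 1071 ± 397 CPM, a log2 fold change of 2.52 ± 0.41. The markers of NK cells, which also carry this receptor, summed to 117 and 119.6 CPM in the controls and to 4.32 to 16.4 CPM in conditioned medium. Macrophage and neutrophil marker sums are given above, and the part of any of these cells in the Fcgr3 level was not tested.

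Fcgr4, an activating receptor of mouse monocytes, macrophages and neutrophils for IgG2 antibodies, had 35.9 and 35.6 CPM in the controls, the closest control pair of the 7 genes. It had 89.4 (VpR83), 132 (VpR99), 335 (VpR126) and 249 CPM (VpR2020) in conditioned medium. VpR126 and VpR2020 were again the higher pair, and VpR83 was nearest to the controls. The means were 35.8 ± 0.216 and 201 ± 112 CPM, a log2 fold change of 2.49 ± 0.58.

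Fcgr2b, the inhibitory receptor of B cells and myeloid cells, had 87 and 69.6 CPM in the controls. Under conditioned medium it had 615 (VpR83), 555 (VpR99), 1022 (VpR126) and 1095 CPM (VpR2020). The means were 78.3 ± 12.2 and 822 ± 276 CPM, a log2 fold change of 3.39 ± 0.40. The gene therefore stood between Fcgr1 and Fcgr3 in the size of its difference, with the same higher pair of lines as Fcgr3. B cell markers summed to 1016 and 1178 CPM in the controls and to 43.4 to 362 CPM in conditioned medium. Macrophage and neutrophil marker sums are given above, and the part of any of these cells in the Fcgr2b level was not tested.

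Fcer1g, whose product the activating receptors need for surface display and signalling, differed least. It had 317 and 373 CPM in the controls and 702 (VpR83), 521 (VpR99), 719 (VpR126) and 754 CPM (VpR2020) in conditioned medium. The groups did not overlap, and 3 of the 4 conditioned libraries lay close together with VpR99 below them. The means were 345 ± 39.6 and 674 ± 105 CPM, a log2 fold change of 0.97 ± 0.21. It was 0.72 with library totals only, a scaling that moved the median of all genes from -0.01 to -0.26, and relative to that median it was 0.97 there and 0.98 with TMM.

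Fcgrt, the heavy chain of the neonatal Fc receptor, differed widely from medium to medium. It had 28.3 and 23.6 CPM in the controls, and 61.6 (VpR83), 29.3 (VpR99), 245 (VpR126) and 172 CPM (VpR2020) in conditioned medium. VpR99 was barely above control replicate 1, and with library totals only it lay between the controls, at 28 CPM against 30.9 and 26.9. The log2 fold change over the 4 lines was 2.29 ± 0.88, and 1.76 without VpR126 or 2.62 without VpR99. B2m, the gene of its partner β2-microglobulin, had 1004 and 974 CPM in the controls and 1148 to 3210 CPM in conditioned medium, and was not called (log2 fold change 1.01 ± 0.43, edgeR adjusted p = 0.10).

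Fcrls was almost undetected in the controls, with 3 and 4 counts. Conditioned libraries had 9517 (VpR83), 3995 (VpR99), 2759 (VpR126) and 5249 counts (VpR2020), or 348, 32.4, 117 and 290 CPM. Even the lowest of them, VpR99, was far above the controls at 0.1 and 0.188 CPM. With each library weighted equally, the means were 0.144 ± 0.0622 and 197 ± 147 CPM. Pooling weights libraries by depth instead, so VpR99, the deepest and the lowest for this gene, counts most among the conditioned ones. Pooled in this way, Fcrls was 819-fold higher in conditioned medium, with an exact 95% Poisson interval of 398 to 2038 that covers counting error only. Without VpR99 the pooled value was 1859-fold (902 to 4624), and without VpR83 533-fold (259 to 1325). The fitted log2 fold change was 10.45 ± 1.54, a value that depends on the prior count of the fit.

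The order of the 4 media differed from gene to gene. VpR99 gave the lowest conditioned level of Fcgr2b, Fcgr3, Fcer1g, Fcgrt and Fcrls, but the second highest of Fcgr1. VpR83 gave the lowest level of Fcgr1 and Fcgr4 and the highest of Fcrls. VpR126 gave the highest level of Fcgr1, Fcgr4 and Fcgrt, and VpR2020 that of Fcgr2b, Fcgr3 and Fcer1g. Each line has 1 library, so none of these differences between lines could be tested.

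Some neighbours in these orders were closer than the 2 controls of the same gene. VpR126 and VpR2020 had log2 ratios to the control mean of 3.71 and 3.81 for Fcgr2b, where the controls differed by 0.32. VpR83, VpR126 and VpR2020 had 1.02, 1.06 and 1.13 for Fcer1g, where the controls differed by 0.23. The same held for VpR83 and VpR99 with Fcgr2b, and for VpR83 and VpR2020, and VpR99 and VpR126, with Fcgr1. It also held for VpR126 and VpR2020 with Fcgr3, and for VpR2020 and VpR83 with Fcrls. The gap between 2 controls is only a rough measure of spread, so the order among such neighbours is uncertain. That includes each highest or lowest line named above that has such a neighbour. Wider steps were seen for Fcgrt, 2.79-fold from VpR83 to VpR2020, and for Fcrls, 3.6-fold from VpR99 to VpR126. The highest line was above the lowest 1.45-fold for Fcer1g, 1.97-fold for Fcgr2b, 2.24-fold for Fcgr3, 2.88-fold for Fcgr1, 3.74-fold for Fcgr4, 8.36-fold for Fcgrt and 10.8-fold for Fcrls. The median of 8833 genes with at least 10 CPM in conditioned medium was 1.48-fold, and 98.1% and 98.6% of them had a smaller range than Fcgrt and Fcrls. Fcer1g was near the middle, with 47.0% of genes below it.

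**Figure D2:**
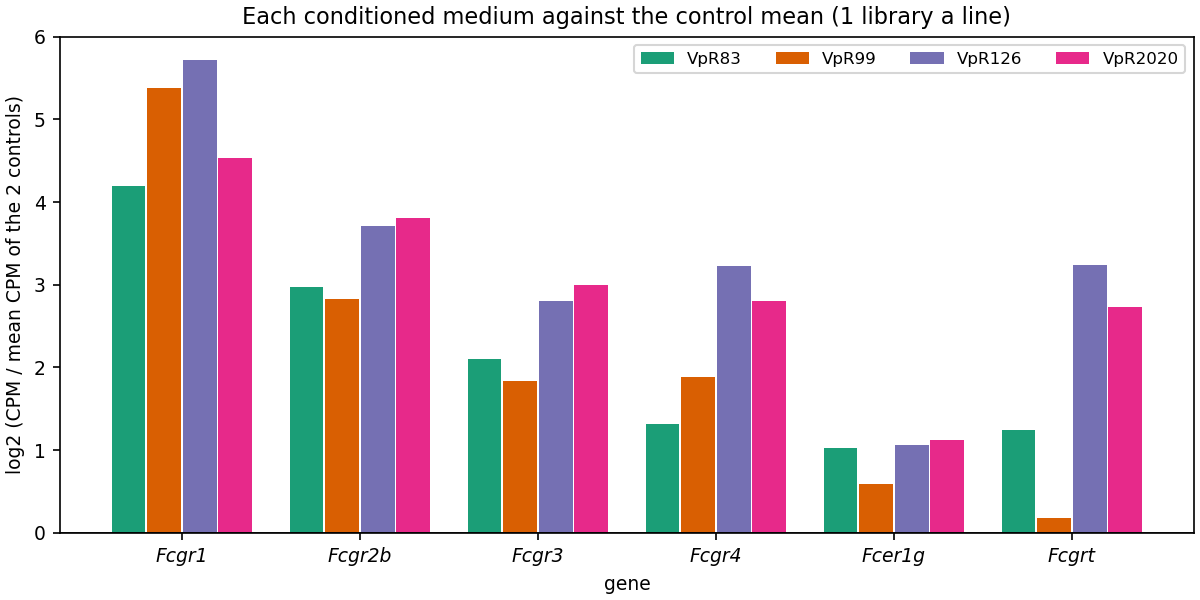
Log2 ratio of the CPM in each conditioned library to the mean of the 2 controls (vertical axis) for 6 genes, with 1 bar a line and Fcrls left out for its few control counts. The Fcgrt bars run from 0.18 (VpR99) to 3.24 (VpR126), while those of Fcer1g run from 0.59 to 1.13.

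Markers of other cells moved with the lines. VpR99 had the lowest macrophage marker sum of the conditioned libraries (6637 CPM, against 10297, 15888 and 12793 in VpR83, VpR126 and VpR2020). It also had the highest neutrophil marker sum (15050 CPM, against 2859, 7515 and 4565). Single genes did not all follow these sums. All macrophage markers but Mrc1 and Msr1 were lowest with VpR99. Of the neutrophil markers, S100a8, S100a9, Ngp, Cxcr2, Elane and Mpo were highest with VpR99, but Camp, Ltf, Retnlg and Csf3r with VpR126. VpR99 was the deepest library as well. The part of these features in the line differences was not tested.

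The balance of the receptors differed within libraries, a comparison that library scaling does not touch. Levels of different genes were set against each other as CPM per kilobase of exon (the union of a gene's exons in GENCODE M21). In the controls the levels per kilobase fell in the order Fcer1g (395 ± 45.3), Fcgr3 (108 ± 11.3), Fcgr4 (28.5 ± 0.172), Fcgr2b (13.5 ± 2.11), Fcgrt (12.3 ± 1.58), Fcgr1 (3.29 ± 0.663) and Fcrls (0.0617 ± 0.0267). By these means Fcgr2b and Fcgrt differed by less than their spread, though Fcgr2b was the higher in both controls (15.0 against 13.5, and 12.0 against 11.2). In conditioned medium the order was Fcer1g (771 ± 119.7), Fcgr3 (617 ± 229), Fcgr4 (160.2 ± 89.0), Fcgr2b (142 ± 47.7), Fcgr1 (111 ± 52.6), Fcrls (84.4 ± 63.2) and Fcgrt (60.4 ± 47.4). By these means Fcgr4, Fcgr2b, Fcgr1, Fcrls and Fcgrt each lay within 1 SD of the next. The place of Fcgr2b in both orders depends on the length used. Per exon length, Fcgr4 stood at 1.90 and 2.36 of Fcgr2b in the controls and at 0.67 to 1.51 in conditioned medium. Per coding length, it stood at 0.564 and 0.698 in the controls and at 0.199 to 0.447 in conditioned medium, below Fcgr2b in every library. Library by library, Fcer1g was above Fcgr3 in all 4, by little with VpR2020 (863.1 against 862.3). Fcgr1 and Fcrls were below Fcgrt in both controls. In conditioned medium Fcgr1 was above Fcgrt in 3 of 4 libraries, all but VpR2020, and Fcrls in 2 of 4, VpR83 and VpR2020.

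The makeup of the receptor pool differed too. Fcgr3 made up 68.2% and 72.4% of the summed level of the 4 Fc gamma receptors in the controls and 53.3% to 66.2% in conditioned medium. The share of Fcgr1 was 1.93% and 2.35% in the controls. It was 8.55% (VpR83), 19% (VpR99), 12.6% (VpR126) and 5.73% (VpR2020) in conditioned medium, where all 4 libraries exceeded both controls. The share of inhibitory Fcgr2b was 10.3% and 7.52% in the controls and 12.9% to 15.1% in conditioned medium. Fcgr4 held 19.6% and 17.7% in the controls and 10.1% to 19.4% in conditioned medium, where VpR126 lay between the controls.

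The level of the activating chains relative to Fcgr2b was lower in conditioned medium. The ratio of summed Fcgr1, Fcgr3 and Fcgr4 to Fcgr2b was 8.74 and 12.3 in the controls and 5.61, 6.54, 6.77 and 6.01 in VpR83, VpR99, VpR126 and VpR2020. All 4 conditioned libraries lay below both controls and were closer to each other than the controls were. The difference of the mean log2 ratios was -0.74, and -0.98 or -0.49 without control replicate 1 or 2. It was -0.76 with the length of the longest transcript and -0.73 with coding length, but the ratio itself depends on the length used, with control means of 10.5 per exon length and 3.83 per coding length. The pair Fcgr3 to Fcgr2b gave 6.65 and 9.63 in the controls and 4.01 to 4.56 in conditioned medium. Fcgr1 went the other way, at 0.188 and 0.312 of Fcgr2b in the controls and 0.402 to 1.43 in conditioned medium.

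Fcer1g was lower relative to the receptors that use it. The ratio of Fcer1g to summed activating receptors was 2.77 and 2.89 in the controls, and 1.35 (VpR83), 0.951 (VpR99), 0.688 (VpR126) and 0.759 (VpR2020) in conditioned medium. The groups did not overlap, and in 3 of the 4 conditioned libraries the receptor transcripts together exceeded that of the chain. With the longest transcript or coding length this held for 2 of 4, as VpR99 then had 1.03 and 1.20. The difference of the mean log2 ratios was -1.64, and between -1.84 and -1.51 when any single library was left out.

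**Figure D3:**
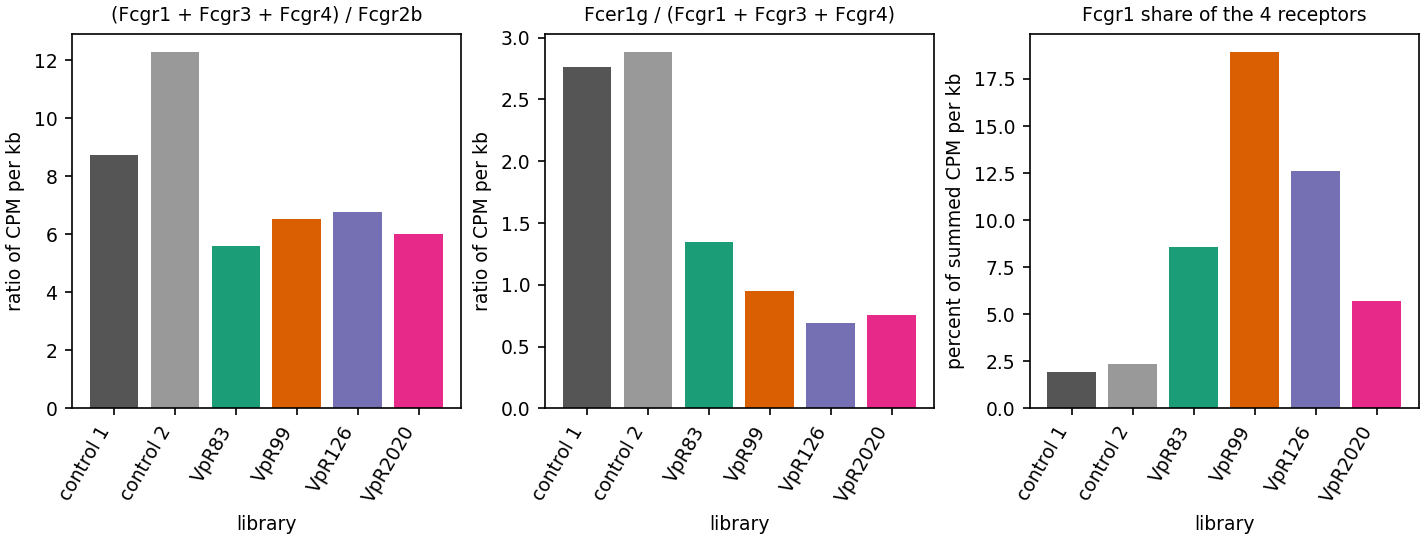
Ratios of CPM per kilobase of exon in each library, from left to right activating receptors over Fcgr2b, Fcer1g over activating receptors, and the share of Fcgr1 among the 4 receptors. Both ratios are lower in all 4 conditioned libraries than in the controls, and the Fcgr1 share is higher, from 5.73% to 19%.

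Fcer1g also serves other receptors, and these moved both ways. Among 8 tested receptors that signal through it, 3 rose, 3 fell and 2 missed the threshold (edgeR, p-values adjusted over all genes, as for all calls here), with a median log2 fold change of 1.59 against -0.01 over all genes. Of all tested genes, 42.2% were called, 22.5% higher and 19.7% lower. Clec4n, the fungal pattern receptor Dectin-2, rose from 2.60 ± 0.0463 to 232 ± 114 CPM (log2 fold change 6.48 ± 0.70, adjusted p = 0.0014). Clec4d, a related C-type lectin, rose by 2.18 ± 0.34 and Pira2, an activating immunoglobulin-like receptor, by 1.46 ± 0.24. The 3 that fell are known from other cells. Ncr1, an NK cell receptor, fell by 7.02, and Fcer1a and Ms4a2, chains of the mast cell and basophil IgE receptor, fell by 4.44 and 3.08. Clec4e, which encodes the lectin Mincle, ranged from 49.0 (VpR2020) to 407 CPM (VpR126) against 76.4 and 41.6 in the controls and was not called (adjusted p = 0.13). VpR2020 lay between the controls for this gene, and without that library it was called higher (adjusted p = 0.042, range 0.042 to 0.41). Oscar had too few counts to test. Without control replicate 1 or without control replicate 2, 1 receptor was called lower, and without the latter Pira2 missed the threshold (adjusted p = 0.055, range 1.2e-06 to 0.055).

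Genes of the signalling steps next to Fcer1g were called in part. The list had 17 tested genes, of which 3 rose, 1 fell and 13 were not called, with a median log2 fold change of 0.38. Of all tested genes, 22.5% were called higher and 19.7% lower. Fgr and Lcp2, named outside the rule after their values were seen, lay just above the threshold. Their log2 fold changes were -1.57 ± 0.52 and 0.63 ± 0.21 (adjusted p = 0.05004 and 0.0512). Syk, the kinase that binds the phosphorylated ITAM, had 431 ± 33.9 CPM in control and 505 ± 151 CPM in conditioned medium (log2 fold change 0.23 ± 0.28, adjusted p = 0.53, and -0.022 with library totals only). Prkcd and Pik3cd, a protein kinase C and a lipid kinase gene, had 0.43 ± 0.28 and 0.46 ± 0.16 and were not called (adjusted p = 0.25 and 0.055). Pik3cd was called higher by DESeq2 (adjusted p = 0.022) and by limma-voom (0.043). The adaptor genes Lat2 and Gab2 rose by 1.92 ± 0.33 and 1.92 ± 0.21, and the exchange factor gene Vav3 by 0.99 ± 0.17. Rac2, the haematopoietic Rac GTPase gene, fell by 1.11. Without control replicate 1 or 2, 1 gene of the list was called higher. Lat2 (adjusted p = 0.061 and 0.057, range over alternatives 1.4e-06 to 0.061) and Vav3 (0.0503 and 0.058, range 6e-06 to 0.058) then missed the threshold, and without control replicate 2 so did Rac2 (0.069, range 9.8e-06 to 0.069). Without VpR99 or without VpR2020, 2 genes were called lower. DESeq2 called 7 higher and 2 lower, and limma-voom 5 and 2.

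Among genes of the inhibitory arm, 5 of 10 rose, 1 fell and 4 were not called, with a median of 0.68. Of all tested genes, 22.5% were called higher and 19.7% lower. Inppl1, the SHIP2 phosphatase gene, rose from 15.0 ± 0.0751 to 155 ± 33.6 CPM (3.37 ± 0.28, adjusted p = 0.0007). Cbl, a ubiquitin ligase gene that limits ITAM signalling, rose by 3.28 ± 0.26 and the adaptor gene Dok2 by 1.91 ± 0.21. Its relative Dok3 fell from 271 ± 0.537 to 91.6 ± 21.6 CPM (-1.57 ± 0.22, adjusted p = 0.0028). The phosphatase genes Ptpn6 and Ptpn11 and the kinase gene Csk had log2 fold changes of -0.24 ± 0.19, 0.50 ± 0.17 and -0.25 ± 0.16 and were not called, though Ptpn11 was without VpR2020 (adjusted p = 0.038, range 0.035 to 0.26). Csk was called lower with library totals only (adjusted p = 0.045). Inpp5d, the SHIP1 gene whose product binds the Fcgr2b tail, rose by 0.88 ± 0.20 (adjusted p = 0.016) and is named outside the rule, after its value was seen. That call was lost without control replicate 1 or 2 (adjusted p = 0.14 and 0.076, range 0.0016 to 0.14). Leaving out either of the 2 controls left 3 genes called higher.

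Other Fc receptor genes, mostly of lymphoid cells, were largely lower. Among 11 tested, 6 fell and 1 rose, with a median of -3.08, where 19.7% of all tested genes were called lower and 22.5% higher. Fcer2a, the low-affinity IgE receptor of B cells, fell from 26.9 ± 2.65 to 0.559 ± 0.422 CPM (-5.57 ± 0.58, adjusted p = 0.0014). Pigr, the epithelial transporter of polymeric immunoglobulin, had 28 counts in the controls together and 1 in conditioned medium, 105-fold lower with a counting interval of 18.9 to 4149. Fcrlb rose by 2.32 ± 0.63 from a low level of 0.398 ± 0.0973 CPM. That call was lost without control replicate 1, control replicate 2 or VpR2020 (adjusted p = 0.12, 0.16 and 0.052, range 0.0016 to 0.16), and 2 genes were called higher without VpR126. Trim21, the cytosolic Fc receptor, had 14.6 and 19.3 CPM in the controls and 27.7 to 65.9 in conditioned medium and was not called (adjusted p = 0.055), but was without VpR126 (0.017, range 0.017 to 0.26). Fcrl1 and Fcrl6 had log2 fold changes of -0.15 ± 0.24 and -2.51 ± 1.13 and were not called either, though Fcrl6 was called lower without VpR126 (adjusted p = 0.014, range 0.014 to 0.31). Lower calls numbered 1 without the first control and 2 without the second. Fcer1a and Ms4a2, which belong to this list too, then missed the threshold in both cases (adjusted p = 0.077 and 0.073 for Fcer1a, range 4.6e-05 to 0.077, and 0.073 and 0.071 for Ms4a2, range 6.7e-05 to 0.073).

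Of the 4 partner chains and ITAM adaptors, 2 fell and 2, B2m and Tyrobp, were not called. Lower calls made up 19.7% of all tested genes. Cd247, the zeta chain of T and NK cell receptors, fell by 3.98 and Hcst, the adaptor DAP10, by 1.66. Tyrobp, the ITAM adaptor DAP12 of myeloid cells, had 682 ± 0.392 CPM in control and 751 ± 157 CPM in conditioned medium (0.14 ± 0.23, adjusted p = 0.65), and its log2 fold change was -0.11 with library totals only and -0.065 with upper-quartile scaling. Without control replicate 1 or 2, Cd247 missed the threshold (adjusted p = 0.058 and 0.061, range 4.8e-08 to 0.061), which left 1 gene called lower.

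**Figure D4:**
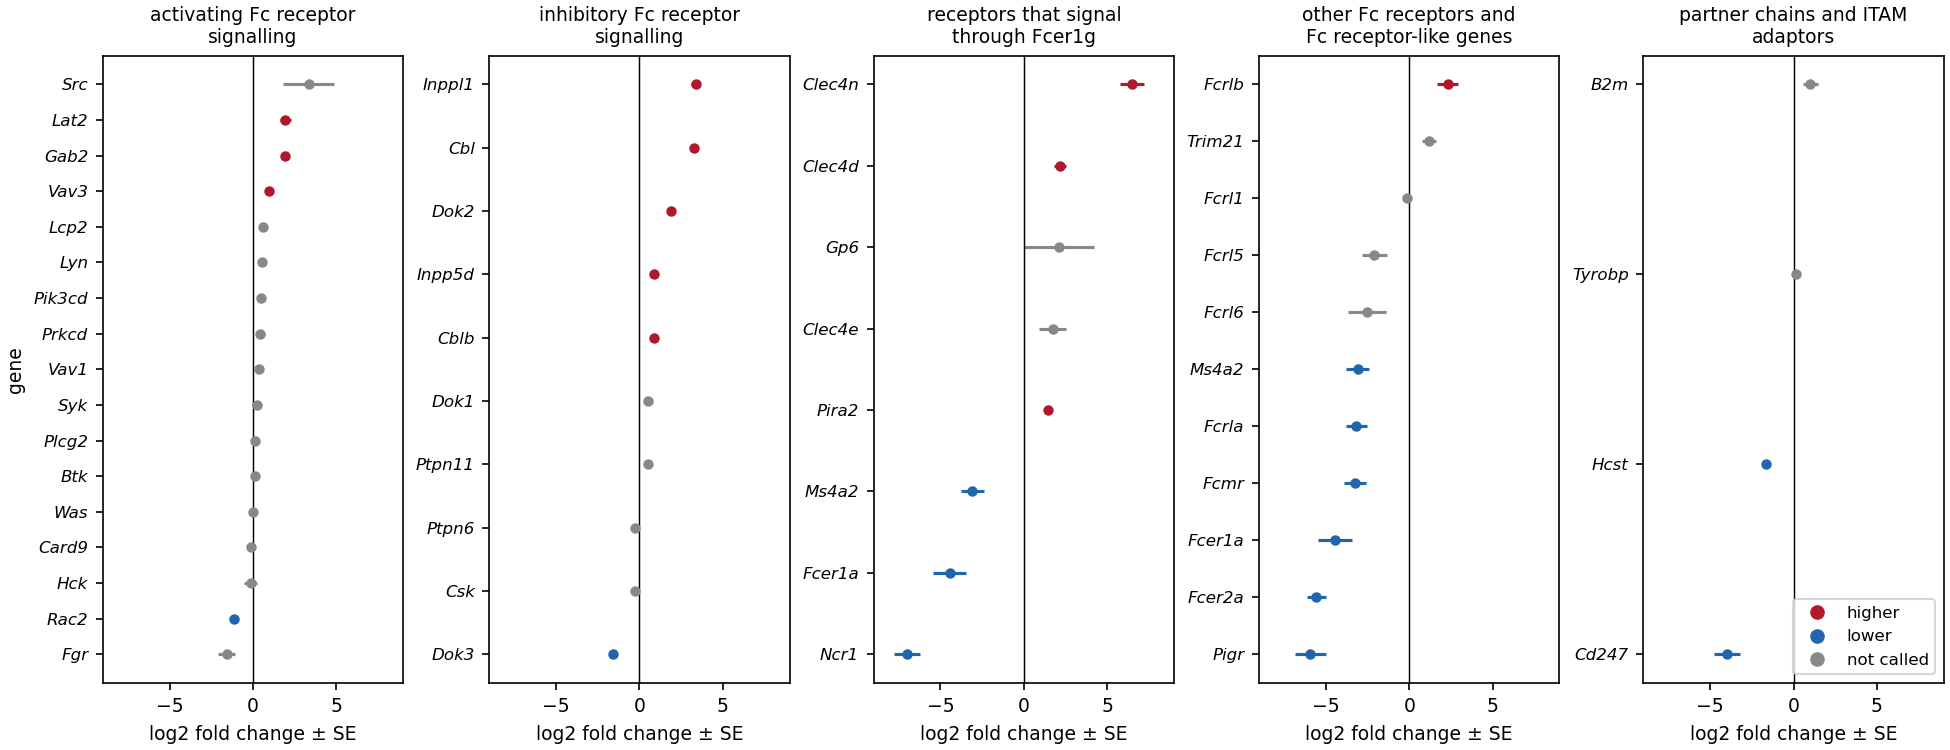
Log2 fold change of conditioned over control medium ± SE (horizontal axes) for the tested genes of 5 lists, red where called higher, blue where called lower and grey where not called. Most activating signalling genes lie near 0, while receptors that use Fcer1g spread from Clec4n at 6.48 to Ncr1 at -7.02.

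The genes nearest in pattern differed from receptor to receptor. Likeness was measured as the root mean square distance of mean-centred log2 CPM over the 6 libraries, among 9014 genes with a mean of at least 10 CPM. This distance follows both the difference between the media and that among the lines, and it is given as a description. Nearest to Fcgr1 were Ifi207, an interferon-inducible gene, and Tlr3, the receptor of double-stranded RNA, at 0.26 and 0.29. Fcgr2b had Dip2c and the ceramidase gene Asah2 at 0.15 and 0.15. Fcgr3 had Cd300c2, a myeloid receptor gene, and the glycan-branching gene Mgat4a at 0.12 and 0.12.

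Fcgr4 had the phospholipase gene Ddhd1 and the arrestin-domain gene Arrdc4 at 0.20 and 0.21. For Fcer1g these were Acox3, a peroxisomal oxidase gene, and B230219D22Rik, at 0.022 and 0.064. Fcgrt had Slit1, a secreted guidance factor gene, and the kinase gene Nuak1 at 0.21 and 0.24, and both were near their control level under VpR99 medium. Slit1 had 2.77 CPM there, against 2.87 and 2.91 in the controls and 32.3 under VpR126 medium. Fcrls had the scavenger receptor gene Stab1 at 0.57 and the membrane protein gene Pmp22 at 1.06. The distance is not scaled to the size of a gene's difference, so how close a neighbour is cannot be compared from receptor to receptor. Among the 7 genes, Fcgr3 and Fcgr4 were the closest pair at 0.37, and Fcrls and Fcer1g the farthest at 4.16.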

How the data were processed

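Libraries were stranded Illumina TruSeq preparations of total RNA, as the labels' protocols say. The submitters' processing notes list Trimmomatic 0.38, STAR 2.5.2b and GRCm38. How reads were counted, with which strand setting and annotation, is not given in the sources used here. Deposited were the authors' raw read counts per Ensembl gene, not normalized, and 45143 of 45706 identifiers matched GENCODE M21, which supplied symbols, coordinates and lengths. The columns of the controls name no medium, and those of VpR83, VpR99 and VpR126 carry further tags that the labels do not explain.

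Counts were filtered with filterByExpr (15141 genes kept), scaled by TMM and tested with edgeR 4.0.16 in R 4.3.3 (robust quasi-likelihood test, group as the only term, two-sided, Benjamini-Hochberg adjustment over all genes tested, call at an adjusted p below 0.05). SEs were taken as |log2 fold change| over the square root of the F statistic. The p-values reflect only how these libraries spread, which may be partly technical. The control pair was the most alike of all pairs (chi-square per degree of freedom 27.9) and still differed beyond sampling noise. Alternatives were RLE, upper-quartile and library-total scaling, no filter, DESeq2 1.42.0, limma-voom (limma 3.58.1), each library left out, VpR99 thinned, and other gene lengths. The fit was also run on simulated counts with the same spread for every gene and few changed genes, equally many in each direction. That run does not bear on the scaling or on the spread among lines in these data.

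The genes and lists were chosen with earlier results of these data known. Named genes are the 7 genes, the 2 nearest in pattern to each, and in each list up to 3 called genes per direction by size and up to 3 not called by mean CPM. Of the marker lists, the monocyte and dendritic cell genes had median log2 fold changes of -1.46 and -1.98, against -0.01 over all tested genes.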

Additional observations from a re-analysis of the deposited data

Results flagged for a closer look

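Among the 4 conditioned libraries, 5 of 62 sets of values had a library far from the others by Dixon's criterion, which chance meets in about 5% of sets. The ratio of B2m to Fcgrt per kilobase was 178 under VpR99 medium against 20.8 to 45.6 under the other media, with 86.7 and 101 in the controls. The difference of its mean log2 ratios between the media was -0.96, and it was -1.58 without VpR99 and -0.55 without VpR2020. VpR126 stood apart 3 times. Trim21 had 65.9 CPM there against 27.7 to 33.7 in the other conditioned libraries, and was called without VpR126 (adjusted p = 0.017, range 0.017 to 0.26). Gp6, the platelet collagen receptor gene that pairs with Fcer1g, had 6.08 CPM there against 0.0366 to 0.166. The summed activating signalling genes reached 4661 CPM there against 3420.1 to 3599.96 CPM. Pigr had its single conditioned count under VpR83 medium, at 0.0366 CPM.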

How the results depend on the processing

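The log2 fold changes of the 7 genes kept their sign under every alternative run, with ranges of 4.80 to 5.32 (Fcgr1), 3.14 to 3.56 (Fcgr2b), 2.26 to 2.69 (Fcgr3), 2.14 to 2.74 (Fcgr4), 0.72 to 1.10 (Fcer1g), 1.76 to 2.62 (Fcgrt) and 9.91 to 10.92 (Fcrls). Fcer1g moved to 0.72 with library totals only, where the median of all genes was -0.26. Higher genes were 53.3% of calls over all genes, but 38.6% when only library totals were used and 40.0% after upper-quartile scaling. Leaving out 1 library gave 1283 to 3657 higher and 918 to 3374 lower calls over all genes. The activating to inhibitory ratio then differed by -0.98 to -0.49 and Fcgr3 to Fcgr2b by -1.16 to -0.63. The ranges of list calls were 1 to 4 higher and 0 to 2 lower (activating signalling), 3 to 6 higher (inhibitory signalling), 1 to 3 lower (receptors on Fcer1g), 0 to 2 higher and 1 to 7 lower (other Fc receptors) and 1 to 2 lower (partner chains). Activating signalling genes called higher were 7 by DESeq2 and 5 by limma-voom, and called lower 2 by DESeq2, by limma-voom, after thinning VpR99 and under the 3 other scalings (RLE, upper-quartile, library totals). With library totals only 2 inhibitory genes were called lower, and 2 other Fc receptor genes were called higher without a filter and by DESeq2. The sign changed for Syk (-0.022) and Tyrobp (-0.11) with library totals only, for Tyrobp (-0.065) under upper-quartile scaling and for Gp6 (-0.70) by limma-voom, none of them called. The cause of these changes was not tested. No paired analysis was possible because the labels number only the control libraries. Where 1 control is left out, the lone control is assumed to vary like the conditioned ones.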

Other observations

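The stretch of chromosome 1 from Fcgr2b to Fcer1g holds 13 other annotated genes, of which 5 could be tested, 1 was called higher and 4 were not called. Called higher were 22.5% of all tested genes, so nothing is read from this count. Between Fcgr3 and Fcer1g lies Sdhc, a respiratory chain gene, at 78.1 and 74.3 CPM in the controls and 79.7 to 119 CPM in conditioned medium (log2 fold change 0.43 ± 0.19, edgeR adjusted p = 0.11). Tomm40l and Pcp4l1 in the same interval had 0.43 ± 0.24 and 1.38 ± 0.53 and were not called. The called gene, Gm38204, overlaps Fcgr2b on the other strand and had 0.0667 and 0 CPM in the controls and at most 0.507 CPM in conditioned medium. Reads of this pair cannot be told apart without the strand setting. These genes were chosen after their values were seen.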
